A study of Caenorhabditis elegans with 2 samples.

Results

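The nuclear genome of Caenorhabditis elegans holds 612 annotated tRNA genes, and 322 of them do not lie wholly within the span of a protein-coding gene. These 322 genes are described here by the regions found near them when the protein encoded by B0310.2, annotated as a C2H2-type domain-containing protein, was precipitated from embryos. Members were taken from the Ensembl release 115 models of assembly WBcel235, the sequence of build ce11, by biotype and position alone, with pseudogenes left out. In 3 of the 322 the span overlapped a protein-coding gene in part. The comparison set was the 290 nuclear tRNA genes lying wholly inside a protein-coding gene.

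The study mapped the tagged protein by chromatin immunoprecipitation and sequencing in a single group of 2 biological replicates. The worms were strain OP642, which carries the transgene wgIs642, a B0310.2 fusion ending in GFP and FLAG tags, together with the mutation unc-119(tm4063) on chromosome III. Whole early embryos of pooled sex were collected 0 h after synchronisation by egg bleaching, an antibody to GFP was used, and chromatin was sheared by sonication. Every cell type of the embryo contributed, the tagged protein came from a transgene, and no precipitation from a strain without the tag was analysed here. With a single group there was no contrast to test, so counts, ranks and replicate values are given as descriptions and no p-value is printed.

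A tRNA gene is transcribed by RNA polymerase III from a promoter inside the gene. Its elements, the A box near the 5′ end and the B box near the 3′ end, encode the D arm and the T arm of the tRNA and are bound by the factor TFIIIC, which places TFIIIB just upstream of the gene. Transcription stops at a run of T residues after the gene. The isotype of a tRNA is the amino acid it carries to the ribosome.

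The measurements were 30000 ranked regions for each replicate and 30000 for the pooled replicates, each with a summit and a signal that are the authors' own. The scale of the signal was not stated, so a region is described by its rank within a list, 1 being the strongest, and the level of the signal is not compared between lists. A retained peak is a region of the authors' thresholded list of 642, which are the first 642 of the pooled list. The depth of the libraries is unknown because the lists hold no read counts.

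The strongest genes were a leucine, an isoleucine and a lysine tRNA gene, and their sequences are shown because they carry the highest ranks in the data. They lay at chrX:13665555-13665673 on the plus strand, chrV:12002176-12002260 on the plus strand and chrX:14063946-14064018 on the minus strand (ce11, 1-based). Capitals mark letters of the A box (TNGNNNAGT, starting within the first 20 bases) and of the B box (GTTCGANNC, or with any base in the fifth place, GTTCNANNC).
C04A11.t1: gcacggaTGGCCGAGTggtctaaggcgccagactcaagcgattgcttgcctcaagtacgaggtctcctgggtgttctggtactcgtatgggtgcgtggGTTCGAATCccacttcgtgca
F57F5.t1: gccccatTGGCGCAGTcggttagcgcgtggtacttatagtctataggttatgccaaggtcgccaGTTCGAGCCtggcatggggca
C33G3.t2: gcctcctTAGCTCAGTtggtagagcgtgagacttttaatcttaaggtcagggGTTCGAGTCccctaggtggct

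The members nearest the lower limit of the retained list are shown for comparison, with the same capitals. Just inside it were the threonine gene Y97E10C.t1 (chrV:7730654-7730725, minus strand) and the alanine gene Y37A1B.t1 (chrIV:14013805-14013876, minus strand). Just outside it were the alanine gene Y7A9D.t2 (chrIV:16389211-16389282, minus strand) and the leucine gene F42F12.t1 (chrX:12348007-12348126, minus strand). The A box letters were not found in Y37A1B.t1.
Y97E10C.t1: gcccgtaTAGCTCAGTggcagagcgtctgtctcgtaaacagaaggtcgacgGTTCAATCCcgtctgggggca
Y37A1B.t1: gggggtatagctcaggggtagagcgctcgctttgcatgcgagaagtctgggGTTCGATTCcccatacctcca
Y7A9D.t2: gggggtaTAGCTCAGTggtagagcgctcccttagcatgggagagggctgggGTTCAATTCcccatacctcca
F42F12.t1: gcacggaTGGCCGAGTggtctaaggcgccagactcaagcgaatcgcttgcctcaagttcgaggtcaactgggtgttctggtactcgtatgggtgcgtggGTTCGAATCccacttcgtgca

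The strongest member and F42F12.t1 are near copies of each other. Their alignment held 115 identical bases, 4 mismatches and 1 gap base, and both carry the same A box and B box letters in capitals. C04A11.t1 ranked 12 in the pooled list and F42F12.t1 ranked 735. In replicate 1 their ranks were 11 and 1097, and in replicate 2 they were 12 and 789, so the order was the same in both replicates.

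Of the 322 tRNA genes, 93 (28.9%) had a retained peak with its summit within 200 bp. Summits of retained peaks fell in 0.297% of 212439 tiled windows of 472 bp, the width of a tRNA gene of median length with 200 bp on each side. A further 101 genes (31.4%) had a lower-ranked region only, and 194 (60.2%) had any pooled region, against 13% of the tiled windows. The other 128 genes (39.8%) had no pooled region within 200 bp. Among those 128, 100 had no region in any of the lists and 28 had one in a replicate list only. The 93 genes with a retained peak drew on 83 distinct regions, since 10 regions were each assigned to more than 1 gene. For 24 of the 322 genes the region ranked within the strongest 100 of the pooled list. The regions at ranks 71, 78, 99 and 100 were each counted for 2 genes. The summits of 100 regions can fall in no more than 100 of the 212439 tiled windows.

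The replicates gave close counts. In replicate 1, 86 genes (26.7%) had a region among that list's first 642, against 0.293% of the tiled windows. In replicate 2 the number was 89 (27.6%), against 0.295% of the windows. Both replicates placed 76 genes (23.6%) that high, and each of these 76 had a retained peak. Of the 93 retained genes, 83 ranked that high in replicate 1, 85 in replicate 2 and 1 in neither. Of the genes without a retained peak, 3 ranked that high in replicate 1, 4 in replicate 2 and 0 in both.

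Over the 147 genes with a region in both replicates, Spearman's rho of the ranks was 0.859 and Pearson's r of the log2 signals was 0.84. These points are not independent, because neighbouring genes can share a region and both lists were made with a control alignment. A region was found for 169 genes in replicate 1 and 192 in replicate 2. Genes with a region in only 1 of the lists do not enter these correlations. For the retained genes the lowest, median and highest ranks were 11, 254 and 3801 in replicate 1, and 12, 182 and 1130 in replicate 2. The rank was better in replicate 2 for 58 of the 93 and in replicate 1 for 35. The summits of the 2 replicates lay a median of 32 bp apart.

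**Figure D1:**
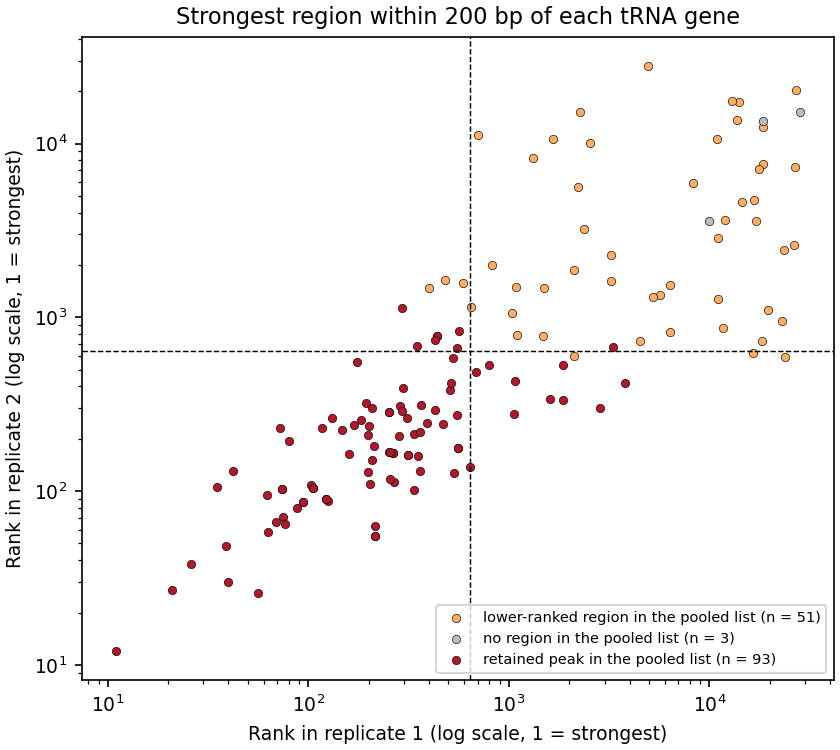
Rank of the strongest region within 200 bp of each tRNA gene in replicate 1 (x axis) and replicate 2 (y axis), both on log scales with 1 the strongest, for the 147 genes with a region in both; colour gives the class in the pooled list and dashed lines mark rank 642. Retained genes fill the lower left corner, where 76 genes lie below rank 642 in both replicates, and a few retained genes lie to the right, up to rank 3801 in replicate 1.

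The leucine gene C04A11.t1 (WBGene00000308) stood highest, at pooled rank 12 with signal 687. Its signal was 213 in replicate 1 and 473 in replicate 2, at ranks 11 and 12. The isoleucine gene F57F5.t1 (WBGene00014406) followed at pooled rank 24 with signal 479.7, and it ranked 21 and 27 in the replicates with signals 154 and 338. Both genes contain an intron, which is spliced from the tRNA precursor, and neither had an identical copy among the members. Both stood near the top of every list.

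The lysine genes C33G3.t2 and W03G11.t1 came next, at pooled ranks 30 and 31 with signals 463 and 462. C33G3.t2 ranked 56 in replicate 1 and 26 in replicate 2, and W03G11.t1 ranked 40 and 30. They were followed by the isoleucine gene C42D8.t1 at rank 35, the arginine genes F28H6.t1 and F35H8.t1 at ranks 44 and 56, and the isoleucine gene C02B4.t1 at rank 61. The threonine gene R01H5.t1, the proline gene ZK899.t1, the serine gene F42A10.t1 and the alanine gene F34H10.t1 stood at ranks 67, 69, 71 and 76. These 12 genes carry 8 different amino acids, and 9 of the 12 lie on the X chromosome, which holds 180 of the 322 members.

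Replicates did not place all of the strongest genes equally. F42A10.t1 ranked 216 in replicate 1 and 55 in replicate 2, whereas F34H10.t1 ranked 35 in replicate 1 and 106 in replicate 2. The retained genes with the widest disagreement were the glutamine gene D1009.t1, at ranks 2841 and 302, the glycine gene Y51H4A.t4, at 3801 and 417, and the glutamate gene F19H6.t1, at 1873 and 333. In all 3 the lower standing was in replicate 1.

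At the limit of the retained list, Y97E10C.t1 had pooled rank 592 and signal 144, and Y37A1B.t1 had rank 618 and signal 142. On the other side, Y7A9D.t2 had rank 718 and signal 135, and F42F12.t1 had rank 735 and signal 134. Y37A1B.t1 ranked 3309 in replicate 1 and 677 in replicate 2. Y7A9D.t2 had no region in replicate 1 and ranked 480 in replicate 2. The members on the 2 sides of the limit thus differed little in pooled signal, and for both alanine genes replicate 2 gave the higher standing.

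Summits of retained peaks lay most often within the gene, at a median position near its 5′ end. Along the gene's strand, the pooled summit of the 93 retained genes was a median of 14 bp inside the 5′ end, with quartiles of 1 and 53 bp and a range from -143 to 186 bp. The median was 17 bp in replicate 1 and 17 bp in replicate 2. The summit was within the gene span in 58 genes, upstream of it in 23 and downstream in 12. At C33G3.t2 the summit was 2 bp inside the gene and at F28H6.t1 it was 5 bp inside. At C04A11.t1 it was 47 bp inside, at W03G11.t1 40 bp and at C02B4.t1 76 bp. The replicate summits of the retained genes lay a median of 32 bp apart, so position within a gene was only coarsely resolved. Where a retained region was assigned to a single gene the median was 15 bp. The 101 genes with lower-ranked regions had a median of 22 bp but wider quartiles, of -46 and 99 bp, and only 30 of their summits were within the gene span.

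**Figure D2:**
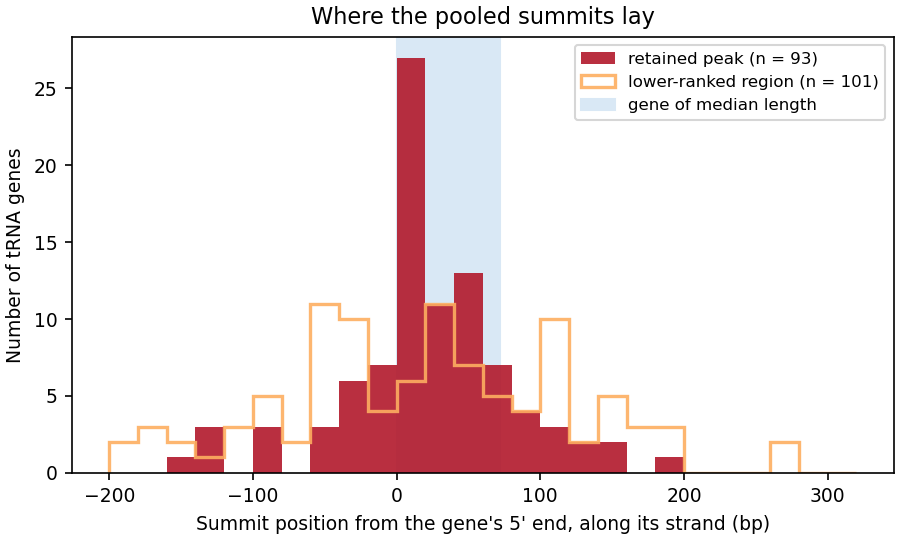
Histogram of the position of the pooled summit from the 5′ end of each tRNA gene along its strand (x axis, bp; y axis, number of genes; bins of 20 bp), filled for the 93 genes with a retained peak and outlined for the 101 with a lower-ranked region; the shaded band is a gene of median length, 72 bp. Retained summits concentrate over the gene around a median of 14 bp, and lower-ranked summits spread over both flanks.

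The letters of the internal promoter were common in all classes of member. GTTCGANNC was found on the gene strand in 235 of the 322 genes (73.0%), whereas 0.511% of genome windows of 72 bp held it on either strand. Retained peaks were found at 28.1% of the genes with these letters and at 31.0% of those without. The wider GTTCNANNC was found in 308 genes (95.7%), against 2.44% of windows, and 87 of the 308 (28.2%) had a retained peak, compared with 6 of the 14 genes without it (42.9%). The wider letters include every match of the narrower ones. The shorter GGTTCGA was found in 210 genes (65.2%), against 0.502% of windows.

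The A box letters TNGNNNAGT were found within the first 20 bases of 199 genes (61.8%), and anywhere on either strand in 11.2% of windows. A retained peak was found at 66 of these 199 genes (33.2%) and at 27 of the 123 without the letters (22.0%). The letters were present in 71% of the retained genes, 67.3% of those with a lower-ranked region and 50.8% of those with none. A TTTT run within 30 bp after the 3′ end was found in 317 genes (98.4%), against 36.1% of 30-bp windows on either strand.

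The sequence before the gene differed in composition between the classes. The median GC content of the 200 bp upstream was 41.0% in retained genes, 37.5% in those with a lower-ranked region and 36.8% in those with none. Downstream the medians were 32.0%, 30.5% and 29.5%. The gene itself had a median of 58.3% in every class. What part base composition had in the signal was not tested.

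Isotypes differed in how many of their genes had a retained peak. Proline genes had 9 of 20, isoleucine 5 of 11, alanine 8 of 19 and lysine 8 of 20. Methionine had 5 of 13, leucine and threonine 7 of 19 each, and arginine 7 of 23. At the other end, histidine had 1 of 13, asparagine and phenylalanine 1 of 8 each, glutamine 2 of 15 and tryptophan 0 of 5. Between these lay glutamate with 8 of 29, tyrosine 3 of 11, glycine 7 of 28, valine 4 of 17, aspartate 3 of 14 and serine 5 of 24, while cysteine, with fewer than 5 genes, had 2 of 4. The 9 proline genes drew on 7 distinct regions and the 5 serine genes on 3. In the other isotypes, retained genes of the same isotype did not share a region. The replicates gave 9 and 9 proline genes as high as rank 642, 4 and 5 isoleucine genes, 6 and 8 alanine genes, and 9 and 7 lysine genes. For histidine they gave 1 and 0. The order of neighbouring isotypes rests on differences of 1 or 2 genes, no more than the replicates differed from each other.

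The strongest gene of each low isotype still had its own standing. The phenylalanine gene Y39B6A.t9 ranked 94 in the pooled list, 126 in replicate 1 and 88 in replicate 2. The asparagine gene F52H2.t2 ranked 141, with 198 and 129 in the replicates. The histidine gene Y7A9D.t1 ranked 544, with 349 and 684. The tryptophan gene rtw-5 ranked 853 and had no retained peak, with ranks 400 and 1475 in the replicates. Of the tryptophan genes named sup, whose mutant forms suppress amber stop codons, sup-21 ranked 8975, sup-29 had no region in any list, and sup-24 had none in the pooled list but ranked 3385 in replicate 1.

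Strongest genes of the remaining isotypes were Y22D7AL.t4 for glutamate and Y22D7AL.t3 for methionine, which shared the region at rank 78, and M02F4.t1 for glycine at rank 100. The summit at rank 78 lay 5 bp inside Y22D7AL.t4 and past the 3′ end of Y22D7AL.t3. The methionine gene F22F1.t6, at rank 79, had its summit 3 bp inside the gene. The aspartate gene Y54G2A.t3 ranked 122, the valine gene R04D3.t2 ranked 128, the tyrosine gene R11.t1 ranked 146 and the glutamine gene T03E6.t1 ranked 276. Their replicate ranks were 203 and 110 for Y54G2A.t3, 336 and 101 for R04D3.t2, 160 and 164 for R11.t1, and 472 and 243 for T03E6.t1. All of these but R11.t1 stood higher in replicate 2. The summit lay past the 3′ end of Y54G2A.t3, at 141 bp from its 5′ end, and upstream of T03E6.t1, at -40 bp. In both cases, and at rank 78, the summit also lay in the promoter of a protein-coding gene, as defined below.

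**Figure D3:**
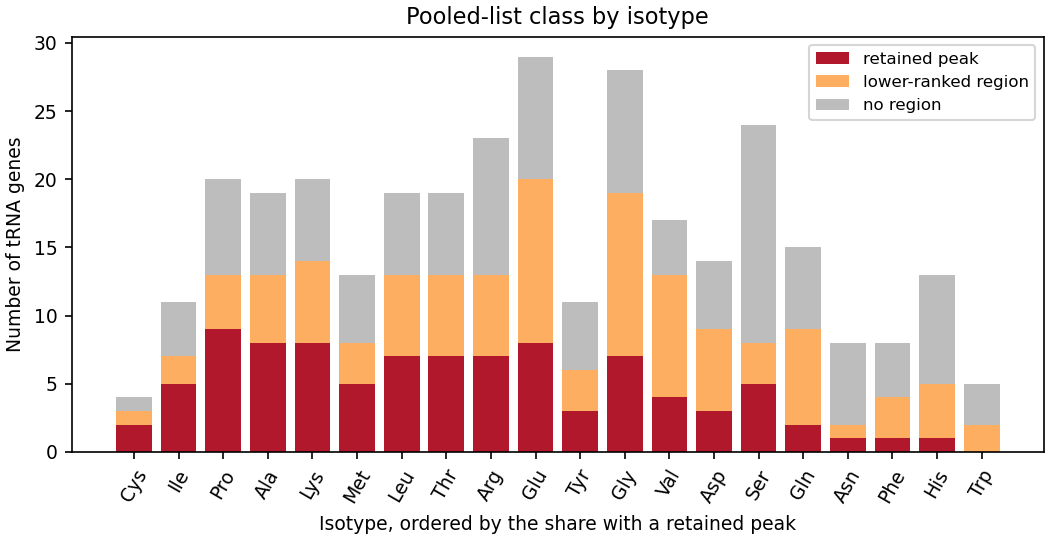
Number of tRNA genes (y axis) of each isotype (x axis, ordered by the share with a retained peak), split into genes with a retained peak, with a lower-ranked region and with no region in the pooled list. Cysteine (2 of 4), isoleucine (5 of 11) and proline (9 of 20, from 7 distinct regions) stand at the left, and histidine (1 of 13) and tryptophan (0 of 5) at the right.

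Genes of identical sequence often fell in different classes. The 322 genes held 130 distinct sequences, and 234 genes had at least 1 identical copy among the members, in 42 groups. A retained peak was found at some copy in 32 of the 42 groups, at every copy in 4 and at no copy in 10. A region shared by neighbouring genes was counted for each gene it was assigned to. In 22 groups some copies had a retained peak while others had no pooled region, and this was so in 18 of the 22 groups with 5 or more copies. Over all 322 genes, 28.9% had a retained peak and 39.8% no pooled region. How often unrelated genes in groups of the same sizes would show both classes was not tested.

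Most 31-base words of a gene that has copies occur elsewhere in the genome, and the median share of unique words within the gene was 0 in each class. Over the gene with 200 bp on each side the median share of unique words was 87.6% in retained genes, 87.6% in genes with a lower-ranked region and 86.5% in genes with none. The lower quartiles were 86.2%, 85.6% and 77.0%, so genes with no region reached further toward repeated sequence. None of the 13 genes with under 50% unique words in that window had a retained peak, and 3 of them had any region. With 50 to 80% unique words, 27 of 56 genes had any region and 16 a retained peak, from 8 distinct regions. With 80% or more the counts were 164 and 77 of 253 genes. How reads with more than 1 possible position were handled is not given in the sources used here. Its part in these classes was not tested.

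Rank was not alike within the largest groups of copies. Of 17 identical glutamate genes, 4 had a retained peak, 9 a lower-ranked region and 4 none. Their pooled ranks ran from 78 for Y22D7AL.t4 to 28082 for F15A8.t2. Of 17 identical glycine genes, 3 had a retained peak, 6 a lower-ranked region and 8 none, and the ranks ran from 100 for M02F4.t1 to 1631 for ZK154.t3. The region at rank 100 was also the one counted for the glutamate copy M02F4.t2, although its summit lay inside M02F4.t1. Of 13 identical lysine genes, 6 had a retained peak, 3 a lower-ranked region and 4 none, with ranks from 31 for W03G11.t1 to 28428 for F55F3.t1. The retained lysine copies C16C8.t1, W09G10.t2 and W10G11.t1 each shared their region with a neighbouring threonine gene. W03G11.t1 ranked 40 in replicate 1 and 30 in replicate 2, whereas F55F3.t1 had no region in replicate 1 and ranked 22495 in replicate 2.

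A group of 13 identical proline genes had 5 copies with a retained peak, 3 with a lower-ranked region and 5 with none. Among the retained copies, F46G11.t1 and F46G11.t2 shared a region, and T23F1.t2 shared its region with the lysine gene T23F1.t1. The group's highest copy, its lowest copy with a region and a copy with none are shown with 60 bases of each flank, since only the flanks can tell them apart. The windows are chrX:9467669-9467860 on the minus strand, chrX:3969496-3969687 on the plus strand and chrX:8969428-8969619 on the minus strand (ce11), and capitals mark the gene.
ZK899.t1: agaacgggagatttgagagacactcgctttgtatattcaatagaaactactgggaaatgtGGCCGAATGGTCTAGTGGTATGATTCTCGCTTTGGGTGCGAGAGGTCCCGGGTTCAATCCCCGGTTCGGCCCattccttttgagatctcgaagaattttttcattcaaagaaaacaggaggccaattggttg
C16B8.t1: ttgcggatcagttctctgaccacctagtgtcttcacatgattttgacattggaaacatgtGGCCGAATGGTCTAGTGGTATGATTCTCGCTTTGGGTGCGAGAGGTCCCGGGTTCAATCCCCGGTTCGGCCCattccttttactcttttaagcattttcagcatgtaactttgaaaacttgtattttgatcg
C48C5.t3: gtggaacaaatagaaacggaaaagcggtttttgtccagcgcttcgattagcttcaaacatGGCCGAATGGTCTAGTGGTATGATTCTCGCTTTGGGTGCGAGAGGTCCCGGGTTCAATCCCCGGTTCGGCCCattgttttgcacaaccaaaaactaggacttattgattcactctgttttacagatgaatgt

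ZK899.t1 had pooled rank 69 with signal 354, and its ranks were 75 in replicate 1 and 71 in replicate 2. C16B8.t1 had pooled rank 10031 with signal 62.2, and its ranks were 14522 and 4638. C48C5.t3 had no region in any list. These proline genes thus had the same 72 bases and stood far apart in both replicates. Outside the capitals, the unbroken shared run touching the gene was 4 bases before it and 9 after it for ZK899.t1 and C16B8.t1. Between C48C5.t3 and either of them it was 1 and 3 bases. Each of the genes shown had a TTTT run within 30 bp after its 3′ end.

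**Figure D4:**
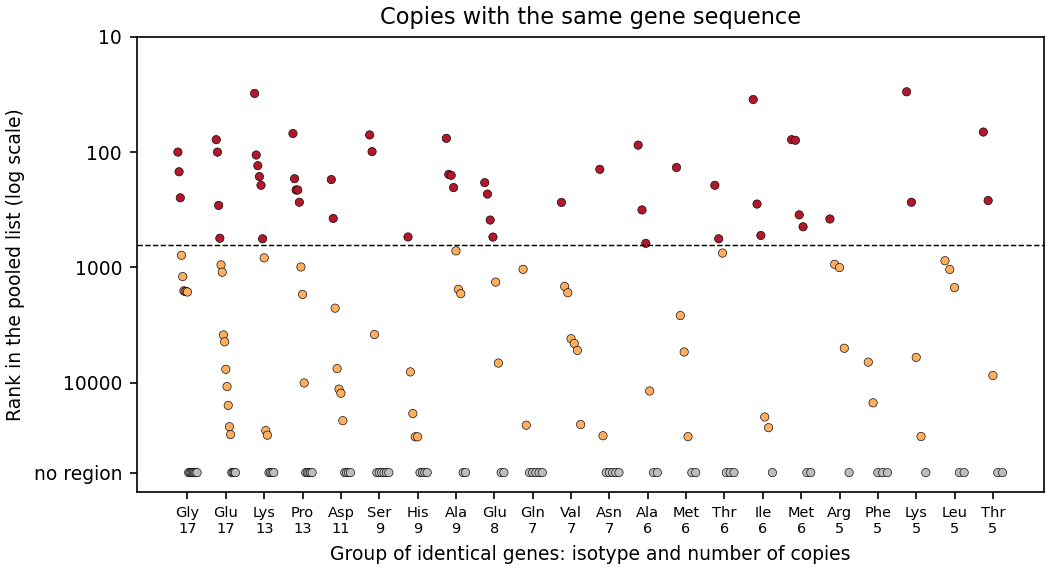
Rank in the pooled list (y axis, log scale, strongest at the top) of every copy in the groups of identical tRNA genes plotted, with each group's isotype and number of copies on the x axis; colour gives the class, the dashed line marks rank 642, and genes with no region are drawn at the foot. The 13 lysine copies reach from rank 31 to 28428, with 4 copies at the foot, and the 13 proline copies from rank 69 to 10031, with 5 at the foot.

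Genes with another tRNA gene within 1000 bp, called clustered, had a smaller share with a retained peak than single genes. The counts were 31 of 148 clustered genes (20.9%) and 62 of 174 single genes (35.6%). The replicates gave 20.3% and 20.9% of clustered genes as high as rank 642, and 32.2% and 33.3% of single genes. The gap between the classes was therefore larger than the gap between replicates. Both replicates cover the same genes, so their gap does not measure how a share varies between sets of genes. The 31 clustered genes drew on 21 distinct regions.

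The counts were also taken on X and on the autosomes apart. On X, 16 of 99 clustered genes (16.2%) and 34 of 81 single genes (42%) had a retained peak. The replicate shares on X were 15.2% and 18.2% for clustered genes and 39.5% and 40.7% for single genes. On the autosomes the counts were 15 of 49 (30.6%) and 28 of 93 (30.1%), and the replicate shares were 30.6% and 26.5% for clustered genes and 25.8% and 26.9% for single genes. The difference between X and the autosomes was not tested.

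Shared regions entered the counts at short distances. On the autosomes 12 of the 20 genes with a neighbour within 200 bp had a retained peak, but those 12 genes lay in 6 pairs that each shared 1 region. With the neighbour between 200 and 1000 bp away the count was 3 of 29. On X the counts were 8 of 49, from 4 distinct regions, and 8 of 50 at the same distances. Beyond 5000 bp they were 28 of 58 on X (48.3%) and 20 of 71 on the autosomes (28.2%).

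In genes whose window was at least 80% unique, clustered genes had a retained peak in 15 of 98 cases (15.3%) and single genes in 62 of 155 (40%). Among these, the shares were 17.4% and 44.2% on X and 10.3% and 35.9% on the autosomes. On the autosomes this filter removed all 20 genes with a neighbour within 200 bp, 12 of them with a retained peak. The 29 clustered genes left there were those with a neighbour between 200 and 1000 bp away, with the same 3 retained. The autosomal values therefore cannot separate unique sequence from distance between genes. The median share of unique words in the window was 85.7% for clustered and 88.0% for single genes.

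**Figure D5:**
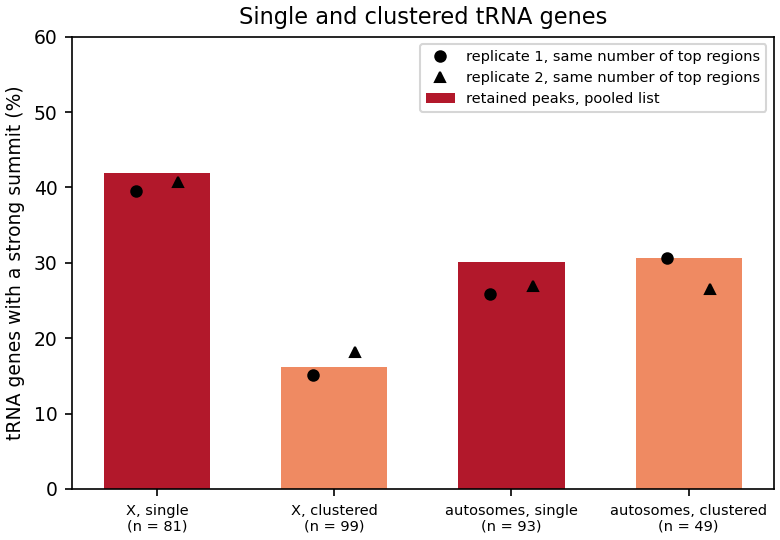
Share of tRNA genes with a retained peak (bars, %, from 0) for single and clustered genes on X and on the autosomes, with the share in each replicate ranked within its first 642 regions (circles, replicate 1; triangles, replicate 2). On X the single genes reach 42% and the clustered genes 16.2%, with both replicates near the bars, and on the autosomes the bars are 30.1% and 30.6%.

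Within runs of tRNA genes the strong signal was often at a single gene. There were 62 runs with 2 or more members and gaps of 1000 bp or less, holding 142 genes, and 20 of the runs had a retained peak. In 9 of those 20 every member was assigned a retained peak, and each of the 9 was a pair of genes that shared 1 region. The run F22F1.t2 to F22F1.t7 on X (8154445 to 8156707) holds 6 genes for serine, aspartate, methionine and isoleucine. Its only retained peak was at the methionine gene F22F1.t6, at pooled rank 79 and at ranks 88 and 80 in the replicates. The isoleucine gene F22F1.t7 beside it, 384 bp from its nearest neighbour, had no region in any list.

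A run of 4 tyrosine genes on X (16208263 to 16209852) had the same form. R11.t1 ranked 146 in the pooled list, with signal 261 and with ranks 160 and 164 in the replicates. R11.t3 ranked 14496, R11.t4 ranked 26405 and R11.t2 had no region. By contrast, 6 histidine genes in a run on X (14135045 to 14137010) had no retained peak, and the best of them, F28H6.t5, ranked 8038. The median share of unique words in their windows was 23.1%, and what part repeated sequence had in this run was not tested.

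Some pairs of neighbouring genes shared a retained region. On chromosome II, 3 pairs of a threonine and a lysine gene, C16C8.t2 with C16C8.t1, W09G10.t3 with W09G10.t2, and W10G11.t2 with W10G11.t1, each shared 1, at ranks 194, 163 and 564. The summit fell between the genes in the first and second of these pairs, and inside the lysine gene W10G11.t1 in the last. In the serine pair C53C7.t2 and C53C7.t1 on X, which diverge from each other, the summit also fell between the genes, and the region ranked 99 in the pooled list, 105 in replicate 1 and 104 in replicate 2. Where the summit fell between the genes, the gene it belongs to was not determined.

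By chromosome, a retained peak was found at 6 of 27 genes on I, 12 of 26 on II, 8 of 22 on III, 11 of 37 on IV, 6 of 30 on V and 50 of 180 on X. X thus held more than any autosome, but its share, 27.8%, was close to the 30.3% of the 142 autosomal genes. In the replicates the shares were 26.1% and 28.3% on X and 27.5% and 26.8% on the autosomes. The share on X was thus the lower in replicate 1 and the higher in replicate 2.

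Genes with an intron had a retained peak in 7 of 17 cases (41.2%), and genes without an intron in 86 of 305 (28.2%). The 7 were the isoleucine genes F57F5.t1 and C02B4.t1, the leucine genes C04A11.t1 and ZK822.t1, and the tyrosine genes T22F7.t1, K09A11.t1 and R11.t1. Ranks of ZK822.t1, T22F7.t1 and K09A11.t1 were 315, 279 and 226 in the pooled list. The replicates ranked them at 296 and 391, 287 and 309, and 359 and 220.

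Shares were close for tRNA genes outside and inside protein-coding genes. A retained peak was found at 82 of the 290 tRNA genes inside protein-coding genes (28.3%), against 28.9% of those outside and 28.6% of all 612. Any pooled region was found at 185 of the 290 (63.8%). The region ranked within the first 100 at 22 of the 290 genes inside and 24 of the 322 outside, with genes that share a region each counted. In the replicates the shares were 23.1% and 26.9% inside, against 26.7% and 27.6% outside, so replicate 1 gave a wider difference than replicate 2. The median summit position of the retained genes inside was 28.5 bp from the 5′ end.

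Of the retained summits at the 93 genes, 30 (32.3%) also lay in the promoter of a protein-coding gene, taken as 1000 bp upstream to 300 bp downstream of a 5′ end. The share was close for the lower-ranked regions, at 29 of 101 genes (28.7%). At the 30 retained genes the tRNA gene and the protein-coding promoter could not be told apart by position. For 1 of the 93 a small RNA gene of another class was also within 200 bp of that summit.

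Listed genes of RNA polymerase III transcription and tRNA maturation were looked at for their own promoters. Not all are specific to tRNA, since the list includes snpc-1.1, snpc-1.2, snpc-1.3, snpc-3.1, snpc-3.2, snpc-3.4 and snpc-4, subunits of SNAPc. The list held 21 genes, among them the RNA polymerase III subunits rpc-1 and rpc-2, the TFIIIB component brf-1, the TFIIIC components tftc-1, tftc-3 and tftc-5, the polymerase III repressor mafr-1, the tRNA 3′ processing enzyme hoe-1, the tRNA ligase rtcb-1 and the La protein ssb-1. None of the 21 had a retained summit in a promoter, whereas 370 of 19973 protein-coding genes (1.85%) did, a share that would come to fewer than 1 gene in 21. A lower-ranked region was found at 11 of the 21, and any pooled region at 38.3% of all protein-coding genes. The highest were ssb-1 at rank 1059 and rpac-19, a subunit shared by polymerases I and III, at rank 1623.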

How the data were processed

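Anti-GFP ChIP-seq regions of 2 biological replicates were used. Per the deposited file descriptions, the authors made 1 region list per replicate and 1 from the pooled alignments, each against a control alignment. The retained list was cut from these by irreproducible discovery rate. The deposited signal value was used for ranking within a list and, on the log2 scale, for 1 correlation between the replicate lists. The deposited −log10 q values were between 2.03 and 2.47 at the retained members and were used only to describe them. The authors' summit position was taken as the region start plus the deposited offset. Caller, aligner, versions, threshold and depth were not given in the sources used here. The 4 lists for build ce10 were not used, and no coordinate was converted.

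For each tRNA gene the region of highest signal with its summit within 200 bp was taken in each ce11 list. Models came from Ensembl release 115, and isotypes, product names and gene names from RefSeq's annotation of WBcel235, in which 2 members have no isotype. Printed sequences are from WBcel235. Uniqueness was the share of 31-base words found once in the genome on either strand. Distance between tRNA genes was taken edge to edge over all 612. The members, the lists and the letters searched were chosen with earlier results of these data known.

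The genes named are the 12 strongest, 1 per region; the 2 on each side of the retained limit; the 3 with the largest ratio of replicate ranks; the extreme copies of the largest groups of identical genes (4 groups, because of a tie); the strongest gene of each isotype with 5 or more members; the 3 runs with most members; and the polymerase III list, from which lap-1, an aminopeptidase listed by mistake, was left out. Others were named after their values were seen. These are the sup genes, the intron-bearing genes, the pairs that share a region and C48C5.t3. The sequence of W03G11.t1 is not reported here.

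Alternatives were the summit distance, the nearest in place of the strongest region, only the stronger part of the retained list (up to its median rank), each replicate alone, no partial overlap, each region counted once, cluster distances and other letters. Python 3.11.15, numpy 2.4.6, pandas 2.3.3 and matplotlib 3.10.9 were used, and the assignment was tested on simulated data.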

Additional observations from a re-analysis of the deposited data

How the results depend on the processing

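The number of members with a retained peak was 93 and lay between 73 and 99 under every alternative run, from 86 to 89 when either replicate was left out. The number with any region lay between 169 and 222, with 169 to 192 without a replicate, and the number as high in both replicates, 76, between 57 and 83, with no value when a replicate is left out. The median rank of members with a region was 767, and was 950 with summits up to 500 bp away and 592 to 760 without a replicate.

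The clustered share minus the single share was -14.7 percentage points. It was -18.1 with summits within 100 bp, -10.6 within 500 bp, -16.7 with the nearest summit, -8.19 with the stronger part of the retained peaks, -15.3 with no overlap of a protein-coding gene, -19.7 with each region counted once, -7.60 and -16.6 with clusters defined by 500 and 2000 bp, and -12.4 to -11.9 without a replicate. Among alternatives chosen after seeing the data it was -24.7 in windows at least 80% unique, -25.8 on X and 0.505 on the autosomes, where it reversed. On the autosomes the 6 shared regions behind 12 genes enter this value.

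The share outside minus inside protein-coding genes was 0.606 points, 5.77 with that stronger part, -1.3 with each region counted once, and 0.743 to 3.6 without a replicate. The share with minus without the B box letters was -2.95 points, -1.26 with each region counted once, 1.85 for GGTTCGA, -14.6 for GTTCNANNC (chosen after seeing the data, 14 genes without it), and -4.35 to -3.08 without a replicate. The cause of these reversals was not tested.

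The median summit position was 14 bp, 14.5 within 100 bp or with the nearest summit, 13 with that stronger part, 15 with each region counted once, and 16 to 16.5 without a replicate. The Spearman rank correlation between replicates was 0.859, 0.814 within 100 bp, 0.8585 within 500 bp, 0.786 with the nearest summit and 0.8592 with each region counted once, and has no value without a replicate. No paired analysis was possible because the samples form 1 group. Depth is unknown, so a gene with no region cannot be called unbound.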
